A study of Mus musculus with 8 samples.

Results

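Serotonin receptors are the cell-surface proteins through which neurons respond to serotonin, and the mRNA levels of 10 of them were examined in dorsal and ventral medial entorhinal cortex (MEC) of the mouse. The receptor genes Htr1a, Htr1b, Htr1d, Htr1f, Htr2a, Htr2c, Htr3a, Htr4, Htr5a and Htr7 were matched by symbol in the deposited gene table, which holds 14 genes of the Htr family among 38553 genes. The other members of the family, Htr2b, Htr3b, Htr5b and Htr6, were counted with the pathway genes. The study asked how gene expression differs along the dorsoventral axis of the MEC, a cortical area in which the scale of spatial firing changes along that axis. The animals were 13 males of the C57BL/6JolaHsd strain, 8 weeks old. Regions were dissected from 1 sagittal slice of 400 µm per brain, and the tissue of 3 or 4 mice was pooled for each library. The mice formed 4 groups, which gave 4 dorsal and 4 ventral RNA-Seq libraries, and the labels name no treatment or genetic change for either region. Each library is therefore a pool of animals, and the p-values between regions measure the spread between pools. Each group of mice gave a dorsal and a ventral library, but the data columns do not name the group. The comparisons of regions therefore treat all libraries as independent and ignore this pairing.

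Libraries are named by the header of their data column. The headers name the opposite region for 4 of the 8 libraries, so the dorsal libraries are those headed D1, V1, D2 and V2 and the ventral libraries those headed D3, V3, D4 and V4. This assignment comes from values: with it, the regional means of 13388 of 13400 genes matched the authors' dorsal and ventral means within 0.1%, against 294 genes for the next best of the 70 possible assignments and 138 genes for the headers. With the regions of the headers no receptor was called, and every regional result below rests on the assignment by means.

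Serotonin reaches the cortex through axons of neurons whose cell bodies lie in the raphe nuclei of the brainstem. Receptors of the Htr1 and Htr5 families couple to Gi/o proteins and lower cyclic AMP, those of the Htr2 family couple to Gq proteins and activate phospholipase C, and Htr4 and Htr7 couple to Gs proteins and raise cyclic AMP. Htr3a encodes a subunit of a cation channel opened directly by serotonin and is a marker of a class of cortical interneurons.

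Htr2c was the receptor called different between the regions, and 2 stretches of its gene are shown for that reason. The gene lies on the X chromosome at chrX:146962513-147197277 (GRCm38, plus strand) and has 8 separate exon blocks in the GENCODE annotation. The first stretch is the promoter window from 250 to 51 bases before the RefSeq start (chrX:146962263-146962462, GRCm38.p6, plus strand), in which the capitals mark ATTGG, the reverse complement of the CCAAT box, at 80 bases before the start. For comparison, the same window is given for Htr2a, the other Gq-coupled receptor of the 10 (chr14:74640624-74640823, plus strand). There, the capitals mark CCGCCC, the reverse complement of the GC box GGGCGG, at 85 bases before the start.

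Htr2c promoter window: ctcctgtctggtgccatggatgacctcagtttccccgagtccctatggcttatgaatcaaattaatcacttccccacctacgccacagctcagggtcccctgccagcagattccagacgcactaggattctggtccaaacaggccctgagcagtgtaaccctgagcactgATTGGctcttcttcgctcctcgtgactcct

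Htr2a promoter window: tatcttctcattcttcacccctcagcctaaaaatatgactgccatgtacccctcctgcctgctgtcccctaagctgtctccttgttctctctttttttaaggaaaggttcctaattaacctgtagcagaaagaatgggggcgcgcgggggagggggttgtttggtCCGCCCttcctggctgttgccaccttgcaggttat

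A search of both strands found the CCAAT box in 3 and the GC box in 3 of the 8 receptors whose RefSeq promoter windows were searched. The cAMP response element, spelled TGACGTCA, was found in 0 of them. Htr1d was searched in both of its windows and counted for a motif found in either. Windows on chromosome 18, where Htr4 lies, were not searched for the receptors. Over 32851 single promoter windows of the same length, the CCAAT box was present in 28.4%, the GC box in 24.6% and the cAMP response element in 0.828%. Motifs were matched letter by letter, and none contains another. These matches are a description of the letters, and the data hold no measurement of factor binding. RefSeq windows were matched by symbol for Htr1a, Htr1b, Htr1d, Htr1f, Htr2a, Htr2c, Htr5a and Htr7.

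The second stretch lies in exon 5 of a GENCODE transcript of Htr2c and in exon 6 of another (chrX:147169665-147169721, GRCm38, plus strand). Its capitals mark the 15 bases, codons 157 to 161, that hold the adenosines which ADAR enzymes convert to inosine in the Htr2c mRNA, an edit that lowers coupling of the receptor to its G protein. It is shown because the gene of one of these enzymes, Adarb1, was also called different between the regions. The gene-level values count edited and unedited mRNA together, so that editing itself was not measured.

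Htr2c edited stretch: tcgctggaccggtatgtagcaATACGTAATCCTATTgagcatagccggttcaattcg

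Levels are given as FPKM, a fragment number divided by the exon length of the gene and by the size of the library, so that levels of different genes can be compared. Receptor levels spanned a wide range (see the plot of FPKM by library). Htr1a, an inhibitory receptor found on the soma and dendrites of cortical neurons, had the highest level, 22.9 FPKM on average over the 8 libraries. It was followed by Htr5a with 10.1 FPKM, Htr2a with 5.30 FPKM and Htr7 with 4.22 FPKM. Htr1b, Htr1f and Htr2c came next with 3.40, 2.83 and 2.68 FPKM. Htr3a reached 1.60 FPKM, Htr4 0.429 FPKM and Htr1d 0.0725 FPKM.

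**Figure D1:**
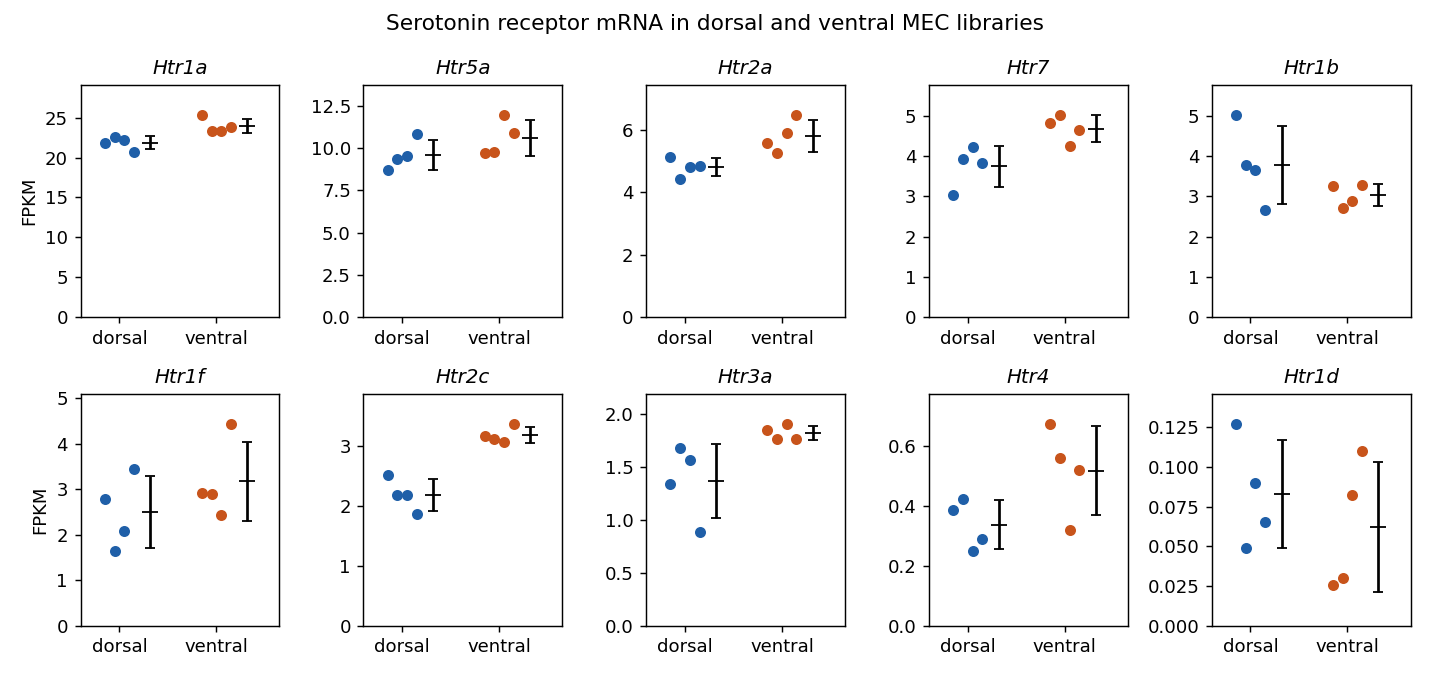
FPKM (vertical axis of each panel, starting at 0) of the 10 serotonin receptors in the 4 dorsal (blue) and 4 ventral (orange) libraries, with 1 point per library and the mean ± SD beside each group. The libraries of Htr2c do not overlap between regions (dorsal at most 2.52, ventral at least 3.06 FPKM), while those of Htr1b, Htr1f, Htr5a, Htr4 and Htr1d do.

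Neighbours in this order were compared within libraries by an exact sign permutation test of the difference in log2(FPKM + 1), for which the smallest p with 8 libraries is 0.00781. The libraries come from 4 groups of mice, each of which gave a dorsal and a ventral library, so that the 8 differences share animals and these p-values are too small; over 4 groups the smallest p would be 0.125. Of the 9 neighbouring pairs, 6 differed by this test, each with the higher receptor above the lower one in 8 of 8 libraries and an exact two-sided p, adjusted over the 9 pairs, of 0.0117. These were the steps from Htr1a to Htr5a, Htr5a to Htr2a, Htr2a to Htr7, Htr2c to Htr3a, Htr3a to Htr4 and Htr4 to Htr1d. The steps from Htr7 down to Htr2c were not resolved. Htr7 lay above Htr1b in 7 of 8 libraries (mean difference 0.25 ± 0.39 SD on the log2 scale, adjusted exact p = 0.151), Htr1b above Htr1f in 5 of 8 (0.22 ± 0.45, adjusted exact p = 0.246) and Htr1f above Htr2c in 3 of 8 (0.042 ± 0.30, adjusted exact p = 0.734).

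Between regions, Htr2c, the Gq-coupled receptor known for its edited mRNA, was higher in ventral MEC. Its level was 2.52, 2.17, 2.18 and 1.86 FPKM in the dorsal libraries D1, V1, D2 and V2 and 3.16, 3.12, 3.06 and 3.36 FPKM in the ventral libraries D3, V3, D4 and V4. Every ventral library lay above every dorsal one, and the ventral values were closer to each other than the dorsal values. The mean rose from 2.18 ± 0.268 FPKM (SD, n = 4) in dorsal to 3.18 ± 0.132 FPKM (SD, n = 4) in ventral MEC, a 1.45-fold difference. In limma fitted across all genes on log2(FPKM + 1), a scale on which low genes show less than their full change, the log2 fold change of ventral over dorsal was 0.39 (SE 0.09, 95% interval 0.20 to 0.59, adjusted p = 0.0391).

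A gene was called V>D or D>V when its adjusted p was under 0.05 and its mean FPKM in the higher region exceeded that in the lower one by more than 20%. By this rule 1 of the 8 receptors tested was called V>D and 0 were called D>V, where 1.45% of the 13674 genes tested were called V>D, 2.15% D>V and 3.60% in either direction. With 1 call, the share of the receptors cannot be set apart from that background. The call of Htr2c rested on nearly all libraries: it held when the dorsal library D1 was left out (limma adjusted p = 0.0400) and was lost when any one of the libraries V1, D2, V2, D3, V3, D4 or V4 was left out (limma adjusted p from 0.0651 to 0.109), while the log2 fold change stayed between 0.34 and 0.44.

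Htr2c is strongly expressed in the epithelium of the choroid plexus, so the markers of that tissue were read in the same libraries. The summed level of 9 choroid plexus markers was 1.19 to 1.76 FPKM in the dorsal and 1.46 to 1.71 FPKM in the ventral libraries. Most of it was Kl (1.06 and 1.18 FPKM on average), and 3 of the 9 markers had a mean of at least 0.1 FPKM. Ttr, the most abundant mRNA of that epithelium, was listed at 0 in every ventral library and at most at 0.128 FPKM in a dorsal one, and Otx2 was listed at 0 in all 8 libraries.

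Htr2a (chr14:74640840-74706859, plus strand) is the other Gq-coupled receptor of the 10 and the one through which serotonin excites cortical pyramidal cells. It had 5.12, 4.42, 4.82 and 4.85 FPKM in the dorsal libraries D1, V1, D2 and V2. The ventral libraries D3, V3, D4 and V4 had 5.58, 5.27, 5.88 and 6.47 FPKM. The groups did not overlap, although the highest dorsal and lowest ventral libraries lay close to each other. The means were 4.80 ± 0.286 and 5.80 ± 0.511 FPKM (SD, n = 4 each), and the log2 fold change of 0.23 (SE 0.08, 95% interval 0.05 to 0.40) did not pass the test in limma (unadjusted p = 0.0169, adjusted p = 0.177). The summed FPKM of Htr2a and Htr2c was 6.60 to 7.63 in the dorsal and 8.39 to 9.83 in the ventral libraries.

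**Figure D2:**
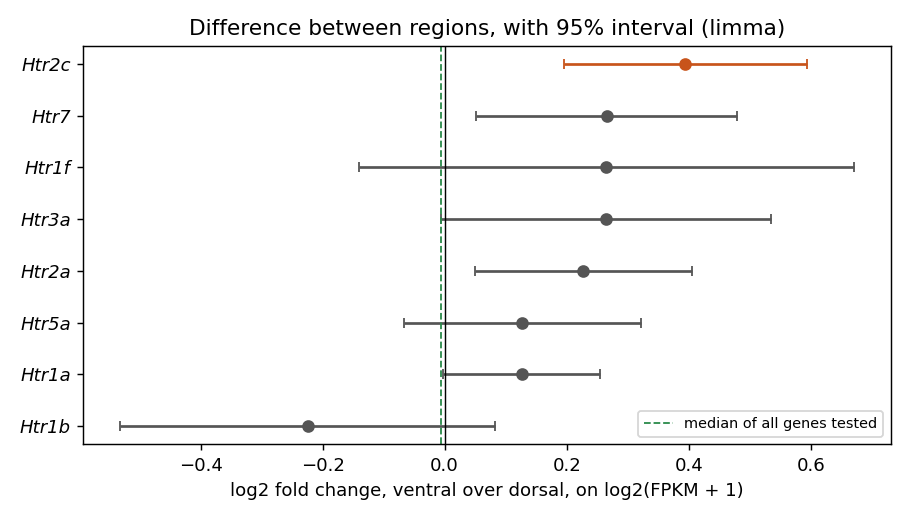
Log2 fold change of ventral over dorsal MEC on the log2(FPKM + 1) scale for the 8 serotonin receptors tested, with points for the limma estimate and bars for its 95% interval; Htr2c, the called receptor, is in orange. Of the 8 estimates, 7 lie above 0, and the dashed line marks the median of all genes tested, -0.0058.

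Htr7 (chr19:35958734-36057507, minus strand, GRCm38 as for all genes here) couples to Gs proteins and is known in the cortex and hippocampus as a receptor that raises excitability. Its FPKM was 3.03, 3.92, 4.23 and 3.82 in the dorsal and 4.83, 5.02, 4.26 and 4.66 in the ventral libraries, in the same order of libraries. The groups did not overlap, but the dorsal library D2 and the ventral library D4 differed by little (4.23 and 4.26 FPKM). The log2 fold change was 0.27 (SE 0.10, 95% interval 0.05 to 0.48), with an unadjusted p of 0.0198 and an adjusted p of 0.194 in limma. The other Gs-coupled receptor of the 10, Htr4, was too low for the fit. It had 0.388, 0.423, 0.251 and 0.290 FPKM in the dorsal and 0.675, 0.561, 0.320 and 0.520 FPKM in the ventral libraries. The ventral library D4 lay within the dorsal range, and the means of 0.338 ± 0.0810 and 0.519 ± 0.148 FPKM (SD, n = 4 each) gave p = 0.0857 in a two-sided exact permutation test, in which the smallest p for 4 against 4 libraries is 0.0286.

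Htr3a (chr9:48899214-48911099, minus strand), the channel subunit, had 1.34, 1.68, 1.56 and 0.889 FPKM in the dorsal libraries D1, V1, D2 and V2 and 1.85, 1.77, 1.91 and 1.77 FPKM in the ventral libraries D3, V3, D4 and V4. All ventral libraries lay above all dorsal ones, and the dorsal library V2 was far lower than the rest. The log2 fold change was 0.26 (SE 0.12, 95% interval -0.0054 to 0.54, limma adjusted p = 0.323), and it was 0.16 without the dorsal library V2. The summed FPKM of 12 genes expressed in interneurons of the Htr3a class was 583 to 664 in the dorsal and 560 to 704 in the ventral libraries, and the groups overlapped. Most of that sum was Cck, with 454 FPKM in dorsal and 460 FPKM in ventral MEC on average. The list also holds Reln, which the paper gives as a marker of excitatory layer II cells, so the sum does not measure the interneuron class alone. Of the 11 genes of the list that were tested, Calb2 and Nr2f2 were called V>D, and Lamp5 and Npy were called D>V. Calb2 (0.785 FPKM in dorsal and 3.16 FPKM in ventral MEC) reached the minimum mean of 1 FPKM only through its ventral libraries. Htr3b, the partner subunit of Htr3a in some channels, was listed at 0 in 7 of 8 libraries. In tissue of mixed cell types, fewer cells of a type and less RNA per cell cannot be told apart, which holds for each receptor.

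Of the receptors that couple to Gi/o proteins, Htr1a (chr13:105443693-105448133, plus strand, 1 exon) was the most abundant. It had 21.9, 22.6, 22.2 and 20.8 FPKM in the dorsal and 25.3, 23.4, 23.4 and 23.8 FPKM in the ventral libraries. The groups did not overlap, and the means of 21.9 ± 0.803 and 24.0 ± 0.927 FPKM (SD, n = 4 each) gave a log2 fold change of 0.13 (SE 0.06, 95% interval -0.0020 to 0.26, limma adjusted p = 0.321). Htr5a (chr5:27841947-27855086, plus strand), a Gi/o-coupled receptor found mainly in brain, had 8.68, 9.36, 9.54 and 10.8 FPKM in the dorsal and 9.74, 9.77, 11.95 and 10.9 FPKM in the ventral libraries. The dorsal library V2 overlapped with the ventral range, and the log2 fold change was 0.13 (SE 0.09, 95% interval -0.07 to 0.32, limma adjusted p = 0.547).

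Htr1b (chr9:81628291-81633828 in GENCODE, minus strand) acts on axon terminals and lowers transmitter release. The deposited locus, chr9:81631343-81645156, reaches past this gene. Htr1b was the one tested receptor with a lower mean in ventral MEC, and the difference did not pass the test. It had 5.02, 3.78, 3.65 and 2.66 FPKM in the dorsal and 3.27, 2.71, 2.89 and 3.27 FPKM in the ventral libraries. The dorsal values spread widely, from the highest to the lowest of all 8 libraries. The log2 fold change was -0.22 (SE 0.14, 95% interval -0.53 to 0.08, limma adjusted p = 0.491). It was -0.34 without the dorsal library V2 (limma adjusted p = 0.190), and the groups then did not overlap. Exons of Htr1b overlap with those of D430036J16Rik, and whether fragments were assigned by strand is not given in the sources used here, so that its values are uncertain. None of the other 9 receptors overlaps with an exon of another gene.

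Htr1f (chr16:64924729-65105784, minus strand), a Gi/o-coupled receptor, varied widely between libraries. It had 2.79, 1.64, 2.08 and 3.44 FPKM in the dorsal and 2.92, 2.89, 2.44 and 4.43 FPKM in the ventral libraries. The groups overlapped, and the log2 fold change of 0.27 had a 95% interval from -0.14 to 0.67 (limma adjusted p = 0.548), so that neither an equal level nor a ventral excess like that of Htr2c was resolved. Htr1d (chr4:136423524-136444398, plus strand), a receptor of axon terminals like Htr1b, was close to the limit of detection with 0.127, 0.0492, 0.0902 and 0.0656 FPKM in the dorsal and 0.0255, 0.0302, 0.0824 and 0.110 FPKM in the ventral libraries. These overlapped (two-sided exact permutation test, p = 0.429).

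Across the 8 receptors tested, mean FPKM was higher in the ventral than in the dorsal libraries for 7, as it was for 48.8% of all genes tested. The median log2 fold change was 0.25 for the receptors and -0.0058 for all genes tested. An unadjusted p under 0.05 was found for 3 receptors, Htr2a, Htr2c and Htr7, where 16.0% of all genes had one in either direction and 7.31% had one with the ventral mean higher. In 5 of the 8, Htr1a, Htr2a, Htr2c, Htr7 and Htr3a, every ventral library lay above every dorsal library, and in 0 the reverse. Over all genes tested, 4.95% had all ventral above all dorsal libraries and 6.17% the reverse. These counts describe genes that share the same 8 libraries and are not independent, and no test was made over the list. The 10 receptors were chosen with earlier results of these data known, so the counts do not stand for the whole Htr family. Of the Htr genes outside these 8, Htr1d and Htr6 had the lower mean in ventral MEC. Htr2b, Htr4 and Htr5b had the higher mean there, and of these only Htr5b showed no overlap. Htr3b was near 0.

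The count of 5 moved with the scaling. It was 6 when every library was rescaled to the same total FPKM, which added Htr5a, and 4 after quantile normalization, which removed Htr7. It was 5 or 6 when a library was left out and 0 with the regions of the headers. The share of all genes with every ventral above every dorsal library was 6.25% with equal totals, 5.44% after quantile normalization, 6.26% to 7.47% with a library left out and 1.42% with the regions of the headers.

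The sum of the 10 receptors was 50.3 ± 0.635 FPKM (SD, n = 4) in dorsal and 56.8 ± 2.03 FPKM (SD, n = 4) in ventral MEC. Dorsal sums ranged from 49.5 to 50.9 FPKM and ventral sums from 54.5 to 59.3 FPKM. Gi/o-coupled receptors, most of which is Htr1a, made up 75.3% of the dorsal and 71.8% of the ventral sum, with 37.8 ± 0.467 and 40.8 ± 1.57 FPKM (SD, n = 4 each). Gq-coupled receptors summed to 6.98 ± 0.465 and 8.97 ± 0.615 FPKM, 13.9% and 15.8% of the total. Gs-coupled receptors summed to 4.09 ± 0.474 and 5.21 ± 0.456 FPKM, 8.14% and 9.18% of the total. The ventral sum was 1.08-fold the dorsal sum for Gi/o-, 1.29-fold for Gq- and 1.27-fold for Gs-coupled receptors and 1.33-fold for Htr3a. These sums carry no test, and the sum for each coupling class is led by 1 or 2 receptors. They cover the 10 receptors only and leave out those counted with the pathway genes. Among the receptors left out, Htr5b (1.83 FPKM in dorsal and 2.76 FPKM in ventral MEC) belongs to the Htr5 family. Htr2b (1.35 and 1.44 FPKM) belongs to the Htr2 family, and Htr6 (0.550 and 0.440 FPKM) is Gs-coupled. The dorsal library V2 was the lowest or the highest of its region for 6 of the 8 receptors tested, against 1 to 5 for the other libraries, and was lowest for Htr1a, Htr1b, Htr2c and Htr3a and highest for Htr5a and Htr1f.

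**Figure D3:**
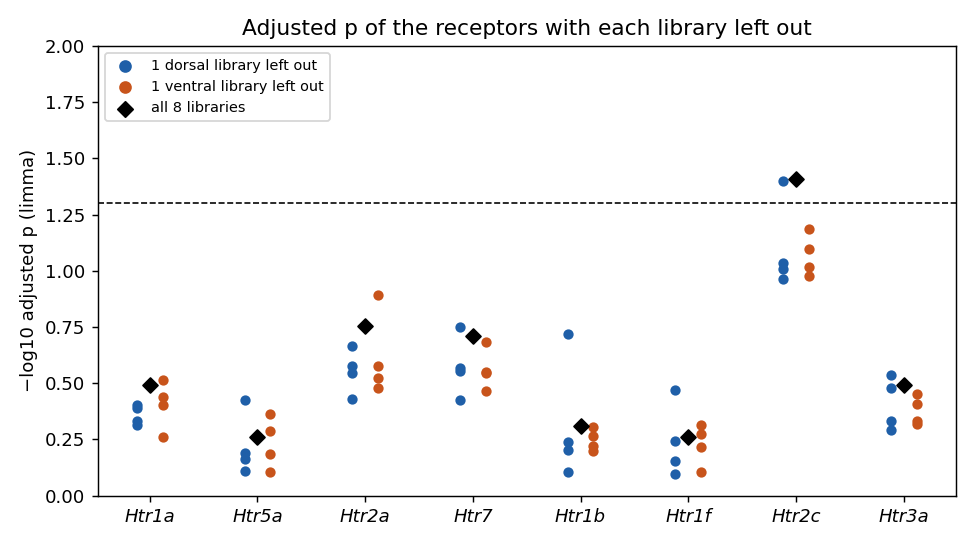
Minus log10 of the limma adjusted p (vertical axis) for the 8 serotonin receptors tested, with all 8 libraries (diamonds) and with 1 dorsal (blue) or 1 ventral (orange) library left out; the dashed line marks 0.05. Htr2c is the one receptor above the line, with all libraries and without 1 dorsal library, and no other receptor reaches it in any of the 8 fits with a library left out.

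Of 50 other genes of the serotonin pathway, 37 could be tested, and 1 was called V>D and 2 D>V, where 1.45% and 2.15% of all genes tested were (see the plot of receptors and pathway genes). The counts are too small to be set apart from that background, in the whole list or in its subgroups. Their median log2 fold change was 0.033, and 7 of them had an unadjusted p under 0.05, as did 16.0% of all genes tested. All 3 called genes encode enzymes: the adenylyl cyclases Adcy2 and Adcy5, which make cyclic AMP, and Adarb1, an ADAR enzyme that edits Htr2c mRNA. The effectors thus held 1 call in each direction among 13 tested, and the receptor partners, editing enzymes and regulators 0 V>D and 1 D>V among 10. None of the 9 G protein alpha subunits tested and none of the 3 tested genes of synthesis, transport and breakdown was called by limma at the same rule, and 0 of either group had an unadjusted p under 0.05. Those 3 were Slc18a2, Maoa and Maob, and no gene of synthesis was tested. Of the untested genes, Slc18a1 (0.475 and 0.0925 FPKM in dorsal and ventral MEC, without overlap), Ddc (1.04 and 0.564 FPKM) and Slc22a3 had lower ventral means. Slc29a4 (0.350 and 0.600 FPKM), Tph1, Tph2 and Slc6a4 had higher ventral means.

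Adcy2 had 26.4, 28.3, 27.6 and 27.0 FPKM in the dorsal and 18.3, 21.002, 21.2 and 19.8 FPKM in the ventral libraries. Every ventral library lay below every dorsal one, and the log2 fold change was -0.43 (SE 0.06, limma adjusted p = 0.00530). Exons of Adcy2 overlap with those of Gm35161. Adcy5 had 7.85, 7.87, 7.82 and 8.66 FPKM in the dorsal and 11.3, 10.4, 11.4 and 10.4 FPKM in the ventral libraries, again without overlap and in the opposite direction (log2 fold change 0.39, SE 0.07, limma adjusted p = 0.0103). The calls of Adcy2 and Adcy5 held in 8 of 8 fits with a library left out.

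Adarb1 fell from 28.7, 27.2, 27.4 and 27.8 FPKM in the dorsal to 22.9, 23.2, 21.2 and 20.002 FPKM in the ventral libraries, a log2 fold change of -0.34 (SE 0.06, limma adjusted p = 0.0175). Its direction was thus opposite to that of Htr2c, whose edited stretch is printed above. The call of Adarb1 was lost without the dorsal library D1 (limma adjusted p = 0.0538), without V1 (limma adjusted p = 0.0551) and with equal total FPKM (limma adjusted p = 0.132). The other editing enzyme, Adar, had 17.5 ± 1.23 FPKM in dorsal and 18.5 ± 1.39 FPKM in ventral MEC (SD, n = 4 each; limma adjusted p = 0.724).

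**Figure D4:**
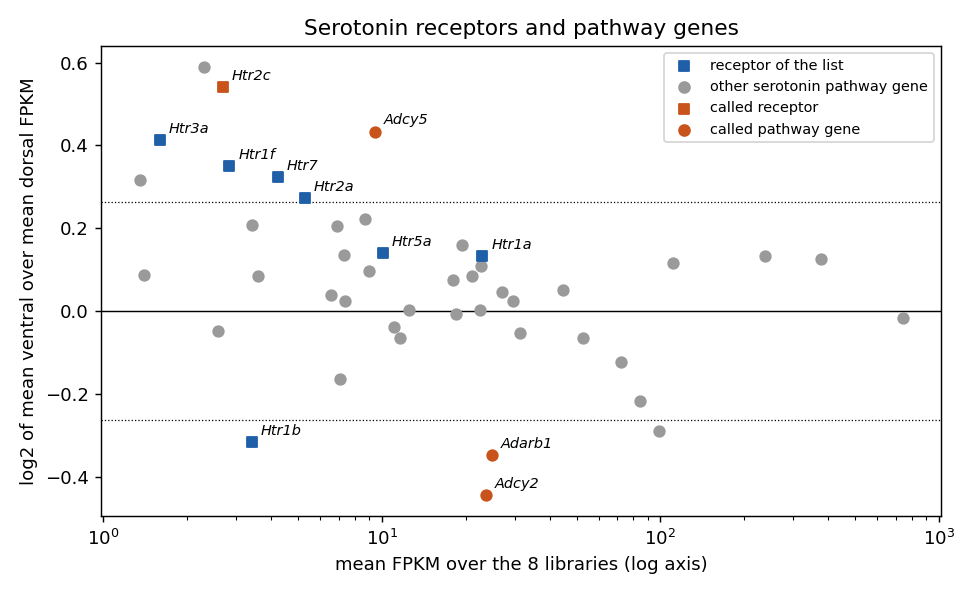
Log2 of the ventral mean over the dorsal mean of FPKM (vertical axis) against the mean FPKM over the 8 libraries (horizontal log axis) for the 8 serotonin receptors tested (squares) and the 37 other pathway genes tested (circles); called genes are in orange and dotted lines mark a 20% higher mean in either region. The called genes Htr2c and Adcy5 lie above the upper line and Adcy2 and Adarb1 below the lower one, while Htr1b lies below it without a call.

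Among the 4 receptor genes counted with the pathway, Htr5b, a relative of Htr5a, had 1.10, 1.96, 2.50 and 1.77 FPKM in the dorsal and 2.75, 2.87, 2.74 and 2.68 FPKM in the ventral libraries. The groups did not overlap, and the log2 fold change of 0.43 did not pass the test (unadjusted p = 0.0124, limma adjusted p = 0.151). Htr2b had 1.35 ± 0.145 and 1.44 ± 0.714 FPKM (SD, n = 4 each; limma adjusted p = 0.995), and its exons overlap with those of Psmd1. Htr6, a Gs-coupled receptor, had 0.550 ± 0.201 FPKM in dorsal and 0.440 ± 0.142 FPKM in ventral MEC and was too low for the fit.

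Of the 4 listed genes of serotonin neurons, Fev, Slc6a4 and Tph2 were near 0 and Slc18a2 was not. Fev, a transcription factor of these neurons, was listed at 0 in all 8 libraries, Slc6a4, the serotonin transporter, at 0 in 7 of 8, and Tph2, which makes the first step of serotonin synthesis in neurons, lay between 0.0508 and 0.214 FPKM. The vesicular transporter Slc18a2 was present at 2.63 ± 0.408 and 2.55 ± 0.420 FPKM (SD, n = 4 each). Of the enzymes that break serotonin down, Maoa had 6.48 ± 0.257 FPKM in dorsal and 6.65 ± 0.242 FPKM in ventral MEC and Maob 6.97 ± 0.747 and 7.65 ± 0.788 FPKM.

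The genes whose log2(FPKM + 1) followed that of Htr2c most closely over the 8 libraries, among all genes tested, were Apaf1 (Pearson r = 0.974), Nov (r = 0.973) and Fam65b (r = 0.972), each higher in ventral MEC by a log2 ratio of mean FPKM of 0.78, 0.41 and 0.36. The points share libraries and the regional difference, and with 8 points the highest of many correlations is a description.

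The tissue label was read against markers. The glutamatergic marker Slc17a7 had 107 FPKM in dorsal and 105 FPKM in ventral MEC on average, and the summed level of 4 glutamatergic and of 3 GABAergic markers in ventral MEC was 1.05-fold and 1.003-fold that in dorsal MEC. Oligodendrocyte markers, all 5 of which were called D>V, summed to 767 to 1022 FPKM in the dorsal and 422 to 555 FPKM in the ventral libraries. The sums of 5 leptomeningeal markers were 29.7 to 38.0 and 55.8 to 68.5 FPKM. The leptomeningeal sums were mostly Dcn (24.3 and 48.4 FPKM on average), the one gene of that list that was called. Lum, Col1a1, Col1a2 and Slc6a13 had higher ventral means, but their libraries overlapped between the regions. The ventral sum was 1.11-fold the dorsal sum for astrocyte, 1.13-fold for microglial, 0.857-fold for endothelial and 0.974-fold for mural markers. In the mural list, which is led by Rgs5, Vtn was called V>D (1.36-fold, limma adjusted p = 0.0229). The ventral sum was 0.820-fold the dorsal sum for markers of the dentate gyrus. That sum was mostly Prox1 (4.48 and 3.49 FPKM), which is also in the list of the Htr3a class and was not called. The other dentate genes were too low to be tested. C1ql2 (0.0492 and 0.215 FPKM, without overlap) and Tdo2 (0.367 and 0.405 FPKM) had the higher mean in ventral MEC. Dsp (0.0919 and 0.0256 FPKM) and Lct (0.128 and 0.0662 FPKM) had the lower mean there. For markers of CA1 and subiculum the ventral sum was 0.814-fold the dorsal sum, and it was made up mostly of Wfs1 (76.6 and 52.5 FPKM, called D>V). The paper shows Wfs1 as a gene with layer-specific expression inside the MEC, so this sum does not measure CA1 and subiculum alone. Fibcd1 (0.641 and 2.52 FPKM, 3.93-fold, limma adjusted p = 0.00296) and Fn1 (10.8 and 16.6 FPKM, 1.54-fold, limma adjusted p = 0.0438) were called V>D. Fibcd1 reached the minimum mean of 1 FPKM only through its ventral libraries. The median log2 fold change of the 3 tested was 0.58. The astrocyte sums were 134 to 145 FPKM in the dorsal and 149 to 162 FPKM in the ventral libraries, and the microglial sums 34.5 to 36.5 and 38.6 to 42.3 FPKM. The leptomeningeal, astrocyte and microglial sums, like Htr2c, were higher in every ventral than in every dorsal library, the oligodendrocyte sums were lower in every ventral library, and their part in the difference of any receptor was not tested.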

How the data were processed

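RNA from dorsal and ventral MEC was sequenced by the authors as paired-end fragments, with CASAVA 1.8, TopHat2 2.0.8 and Cuffdiff named in the submitters' processing notes. FPKM values deposited for every gene in every library come from Cuffdiff 2 with the Ensembl release 73 annotation. The authors' table of comparisons also holds regional mean FPKM, fold changes, p-values and q-values; only the means were used, to assign libraries to regions. A long table with 4 further value columns per sample (fragment estimates and FPKM) was not used here. The FPKM worth of 1 fragment, estimated from low genes, lay between 0.7295 and 1.079 times that of the library D1. Fold changes from FPKM therefore carry no counting interval.

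Genes with enough alignments by the authors' status and a mean of at least 1 FPKM (13674 genes) were compared on log2(FPKM + 1) with limma 3.58.1 (R 4.3.3), using its trended prior variance and Benjamini-Hochberg adjustment over all of them. The fit was tested on simulated data. Htr1d and Htr4, which the authors' status marks as too low, were compared by exact permutation. Replicate numbers of dorsal libraries 1 to 4 stand for D1, V1, D2 and V2, and of ventral libraries 1 to 4 for D3, V3, D4 and V4. The receptors and the gene lists were chosen with earlier results of these data known. Named genes are the 10 receptors, the called pathway genes, the 4 other receptor genes, the 3 genes most correlated with each called receptor, and cell type markers. Maoa, Maob, Adar, Ddc, Slc18a1, Slc22a3, Slc29a4 and Tph1 were named after their values were seen. Alternatives were the constant added to FPKM, the FPKM minimum, the scaling, the trend, the regions of the headers and leaving out each library. The count of receptors without overlap and its alternatives were added after the data were seen.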

Additional observations from a re-analysis of the deposited data

Results flagged for a closer look

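In groups of 4 libraries, 1 library was set apart from the other 3 by Dixon's test at the 95% level in 2 of the 32 groups with at least 2 values above 0, and chance does so in about 1 in 20 groups. Adcy5 had 8.66 FPKM in the dorsal library V2, above 7.82 to 7.87 FPKM in the other dorsal libraries and below every ventral library. Htr6 had 0.850 FPKM in the same library, above 0.416 to 0.468 FPKM in the other dorsal libraries. Htr3b was listed at 0.0255 FPKM in the ventral library D4 and at 0 elsewhere, so that any value above 0 would stand apart there.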

How the results depend on the processing

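With the regions of the headers, Htr1a (-0.033), Htr2a (-0.030), Htr2c (-0.052), Htr3a (-0.090), Adcy2 (0.041) and Adcy5 (-0.024) changed direction on the log2 scale, Adarb1 was -0.029, 0 receptors, 0 pathway genes V>D and 0 D>V were called, the receptors without overlap were 0, and 0 genes V>D and 1 gene D>V were called in all by limma (721 at an unadjusted p under 0.05). With equal total FPKM, which moved the median over all genes from -0.0058 to 0.037, Htr2c had 0.43 (limma adjusted p = 0.0552), leaving 0 receptors called, 1 pathway gene D>V and 195 genes D>V in place of 294. With no filter on FPKM, Htr2c kept 0.39 (limma adjusted p = 0.0903) and 0 receptors were called; the cause was not tested. At a minimum of 5 FPKM it was not tested and 0 were called. Over all alternatives its adjusted p ran from 0.0233 to 0.986. Leaving out 1 library gave 0 to 1 receptors V>D, 0.34 to 0.44 for Htr2c, 1 to 2 pathway genes D>V, 91 to 191 genes V>D and 157 to 341 genes D>V, for which the cause was not tested either. The 6 neighbouring pairs of receptor levels were 6 or 7 in every alternative run. No paired analysis was possible because the columns do not name the group of mice. The low level of Htr1d and Htr4 limits their comparison.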
